A study of Arabidopsis thaliana with 208 samples.

Results

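The loci described here are those of the 2 organelle genomes of Arabidopsis thaliana, taken by locus id. They are the 133 loci whose id starts with ATCG, for the chloroplast genome, and the 146 whose id starts with ATMG, for the mitochondrial genome. Together they make 279 of the 33602 loci counted. Root libraries, 52 at each of 2 nitrate concentrations, were sequenced in 2 runs, and the organelle loci are described from run 1 alone, since the tables of run 2 list all of them at 0.

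The study grew Col, the wild type, and 12 lines with a T-DNA insertion on plates with 1 or 10 mM KNO3 and collected roots of 9-day-old seedlings. They were 8 SALK lines (SALK_146141, SALK_100002, SALK_094437C and SALK_085964C, and also SALK_070847C, SALK_035980, SALK_015182 and SALK_012253), 3 GABI lines (GABI_868_E02, GABI_699B09 and GABI_513E07) and SAIL_1207_H04, each a single insertion line named by its stock, and the labels used here do not name the disrupted gene. All plates held the same KCl, sucrose and other salts, so potassium differed between the media together with nitrate, and the contribution of either cannot be told apart. Each of the 26 groups, a line at 1 concentration, had 4 biological replicates, each from 2 plates of seedlings.

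Chloroplasts and mitochondria keep small genomes of their own that encode a few subunits of the photosynthetic and respiratory complexes together with parts of the machinery that makes them. Most organelle proteins are encoded in the nucleus and imported. In roots the plastids are largely non-green, and the chloroplast genome is read at a low level, while mitochondria supply respiration. Most organelle transcripts carry no stable poly(A) tail, and short tails there mark RNA for decay, so libraries primed from poly(A) tails, such as the 3′ tag libraries made here, read them only in part. The values below are counts of such tags and do not measure the amount of transcript or of organelle DNA.

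The reference used here pairs no organelle id with a gene name or position. Notes on nuclear genes in it name 60 of the ids, 7 of the chloroplast and 53 of the mitochondrial genome, as the source of a copied gene or as the best match of a protein. Loci are therefore named by id, with a description where a note gives one, and no organelle sequence or coordinate is printed.

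Run 1 libraries held 805224 to 6009052 counts, with a median of 3617297. Root markers were present, with median levels of 528 CPM (counts per 1000000 counts of the library) for NRT2.1, a nitrate transporter, and 268 CPM for CASP1, a Casparian strip protein of the endodermis. Of nuclear photosynthesis genes, LHCB1.3, for an antenna protein of photosystem II, had a median of 1.73 CPM and RBCS1A, for the small subunit of Rubisco, one of 14.5 CPM, with a high of 59.9. Sample titles carry the letters str and a number from 1 to 13, shared by 8 libraries each. The labels do not say what str stands for, and this number is called the strip here. Of the 13 strips only 3, with 24 libraries, hold both concentrations, so strip and nitrate overlap. The main nitrate results were fitted also with strip as a term. In none of these 3 mixed strips does a line occur at both concentrations. Values within them therefore set different lines against each other, and line and nitrate cannot be told apart within a strip. For 2 libraries the file and the labels name different lines, and the labels were followed.

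In 3 libraries, all at 1 mM, the mitochondrial share of counts stood far above that of the other replicates. It was 0.978% in Col replicate 2, 1.18% in SALK_070847C replicate 4 and 0.774% in SALK_146141 replicate 2. The chloroplast share was also the highest of its group in each of them, at 0.129%, 0.169% and 0.151%. In Col replicate 2, 12 of the 14 mitochondrial and 16 of the 42 chloroplast loci tested lay above all other replicates. The same counts were 12 and 22 in SALK_070847C replicate 4 and 9 and 13 in SALK_146141 replicate 2. Values of the mitochondrial share and of some of the loci whose calls they moved are given also without them.

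Chloroplast loci received 401296 counts over all libraries, 0.111% of the total. Of the 133 loci, 92 had at least 1 count and 41 had none, where 3 counts over all libraries would be 0.00830 CPM. A filter on low counts left 42 loci to test, of which 24 reached a mean of 5 CPM and are called well counted. The 50 loci with counts that did not pass held 1 to 315 counts each and 1.01% of the chloroplast counts. Levels of single loci are given as CPM of the library total scaled by a normalization factor (TMM), not per length. They rank tags and not transcripts.

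A single locus, ATCG00470, held 42.6% of the chloroplast counts. ATCG01130 followed with 11.5%, ATCG00500 with 6.20%, ATCG01020 with 4.40% and ATCG00790 with 4.27%. The 12 loci with the highest mean level held 85.3% together. Among loci described by a note, ATCG00660, for ribosomal protein L20, received 3475 counts, ATCG00670, for a plastid-encoded Clp protease subunit, 2329, and ATCG00750, for ribosomal protein S11, 680. ATCG00530, for a CemA-like protein linked to proton extrusion, received 426 counts. ATCG00430, which a note calls photosystem II reaction center protein G, received 117 and was not tested. Whether that name gives its function was not checked. The locus that a note describes as ribosomal protein L2, ATCG01310, had no count. By its id it belongs to the inverted repeat, a stretch that the chloroplast genome holds as a pair of copies. Its count is therefore uncertain, and what part this had in the absence of counts was not tested.

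Mitochondrial loci received 1339818 counts, 0.371% of the total, and were far more uneven. ATMG00020 alone held 89.2% of them and ATMG01390 7.66%, while ATMG00090 and ATMG01380 held 0.871% and 0.650%. Of the 146 loci, 53 had a count and 93 had none. The filter left 14 to test, 9 of them well counted, and the 39 loci with counts that did not pass held 1 to 443 counts each. Many mitochondrial loci have a near-identical copy in the nucleus on chromosome 2, under ids that start with AT2G07. The notes pair 52 mitochondrial loci with such a nuclear locus. Of these, 11 had a count and none reached 100 counts, the highest being 56. Of the other 94, 42 had a count and 20 reached 100. Counts of a locus with a copy are uncertain, since reads that match both copies cannot be assigned, and what part this had in the 0 counts was not tested.

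The share of counts at mitochondrial loci was lower at 10 mM than at 1 mM nitrate, and the share at chloroplast loci was slightly higher. The mitochondrial share had a low of 0.267%, a median of 0.402% and a high of 1.18% in the 52 libraries at 1 mM. At 10 mM these values were 0.167%, 0.299% and 0.591%. Ranges overlapped widely, but the mean was lower at 10 mM in 13 of 13 lines. The mean was 0.431% ± 0.159 (SD, n = 52) against 0.313% ± 0.0870 (SD, n = 52). The mean log2 difference within lines was −0.44, a fold of 0.737 (SE 0.078, p = 1e-05 in a two-sided permutation test of 100000 draws within lines, the smallest they can give). Without the 3 libraries that stood apart it was −0.36.

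**Figure D1:**
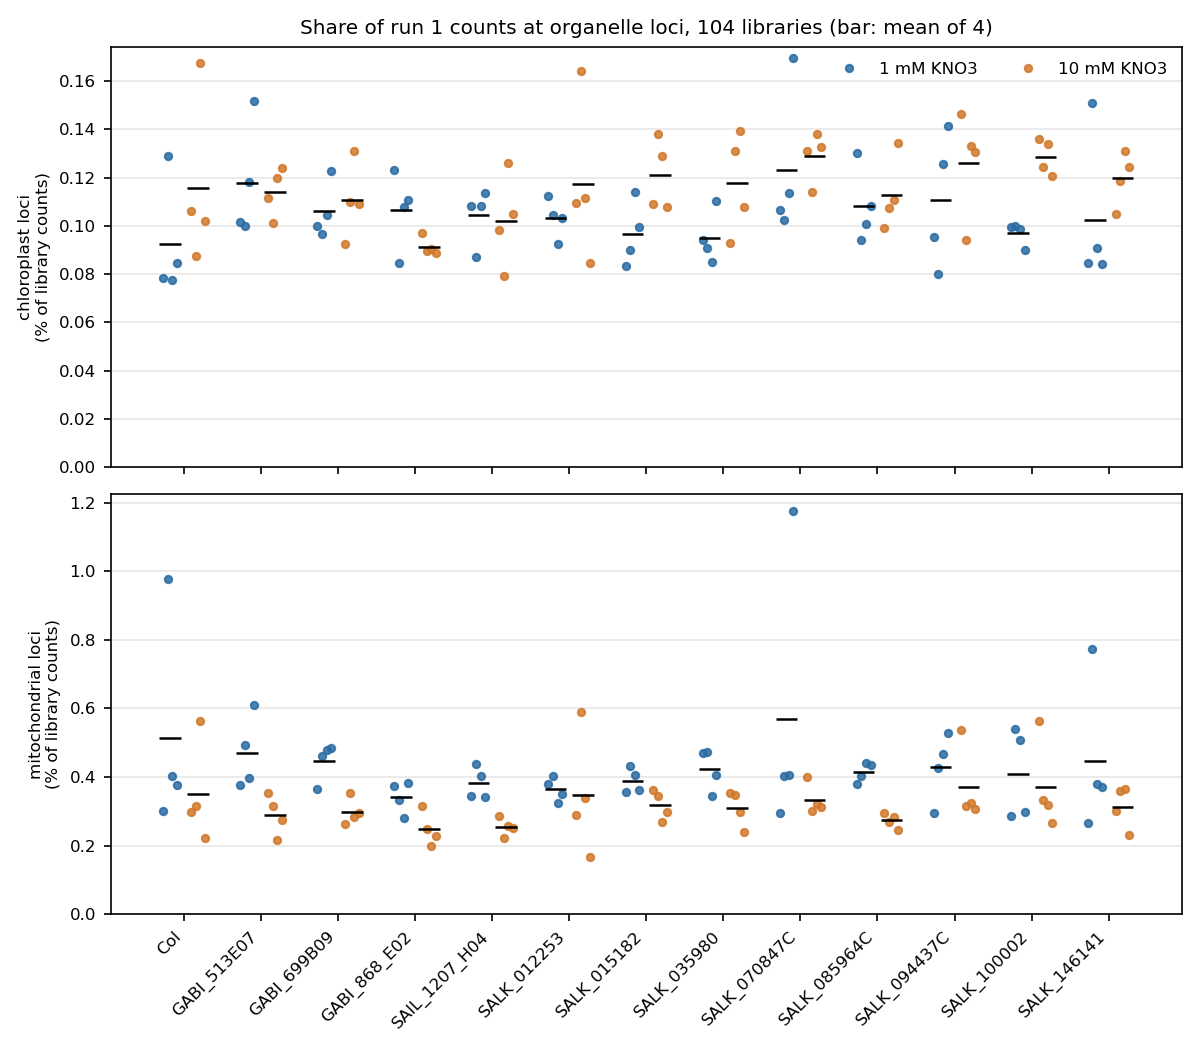
Share of run 1 counts at chloroplast loci (top) and mitochondrial loci (bottom), in % of all counts of a library, for the 13 lines at 1 mM (blue) and 10 mM KNO3 (orange); points are libraries and bars are means of 4. The mitochondrial means lie lower at 10 mM in 13 of 13 lines, and the points at 0.978%, 1.18% and 0.774% are the 3 libraries that stood apart.

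The chloroplast share had a low of 0.0774%, a median of 0.101% and a high of 0.169% at 1 mM. At 10 mM it had a low of 0.0794%, a median of 0.112% and a high of 0.168%. The ranges coincided almost wholly, and the mean was higher at 10 mM in 10 of 13 lines. It was 0.105% ± 0.0194 (SD, n = 52) against 0.116% ± 0.0196 (SD, n = 52). The mean log2 difference within lines was 0.15, a fold of 1.11 (SE 0.048, p = 0.00347, permutation test of 100000 draws within lines). Leaving out replicate 3 of every group brought it to 0.090 (p = 0.121 in the same permutation test). In root samples of this kind, fewer cells of a type and less RNA per cell cannot be told apart.

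The fall of the mitochondrial share rested on its leading locus. Without ATMG00020 the mean share was 0.0398% at 1 mM and 0.0409% at 10 mM, and the log2 difference was 0.074 (p = 0.320, permutation test within lines). Most of the counts then left were at ATMG01390, so this value says little about the smaller loci. ATMG00020 held a median of 91.0% of the mitochondrial counts of a library at 1 mM, with a high of 93.2%, and a median of 86.9% at 10 mM, with a high of 90.1%. The chloroplast share without ATCG00470 was 0.0595% and 0.0673%, a log2 difference of 0.18 (p = 0.00721 in the permutation test). With strip as a term the log2 difference was 0.24 for the chloroplast share and −0.31 for the mitochondrial share, with adjusted p of 0.0291 and 0.0293 in the permutation test. Within the 3 strips that hold both concentrations it was 0.22 and −0.28, with adjusted p of 0.118 and 0.180 in a permutation test within strips. The libraries compared there within a strip come from different lines.

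No line on its own passed the test for either share, in which 4 libraries against 4 allow an exact p of 0.0286 at the smallest. After adjustment over 26 tests the smallest value in these exact permutation tests was 0.149. The smallest possible p was reached by the mitochondrial share of GABI_513E07, GABI_699B09, SAIL_1207_H04 and SALK_085964C and by the chloroplast share of SALK_100002. With that floor no line could pass alone after adjustment over 26 tests, so the lack of a passing line says little about any 1 line. In Col the chloroplast shares at 1 mM were 0.0782%, 0.129%, 0.0774% and 0.0846%, and at 10 mM 0.106%, 0.0874%, 0.168% and 0.102%. The Col mitochondrial shares were 0.300%, 0.978%, 0.402% and 0.376% at 1 mM and 0.298%, 0.315%, 0.562% and 0.222% at 10 mM. Both pairs of groups overlapped in Col.

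The ratio of ATMG00020 to ATMG01390, the 2 mitochondrial loci with the most counts, overlapped less between the concentrations than either share did. This ratio was chosen after its values were seen and is given as a description, with no test. It does not depend on the library total or on the other loci. At 1 mM it had a low of 7.45, a median of 14.5 and a high of 18.6, and at 10 mM a low of 6.52, a median of 8.77 and a high of 14.5. It was above 11 in 50 of 52 libraries at 1 mM and below 11 in 47 of 52 at 10 mM. The 7 exceptions include 5 of the 8 libraries with fewest counts.

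**Figure D2:**
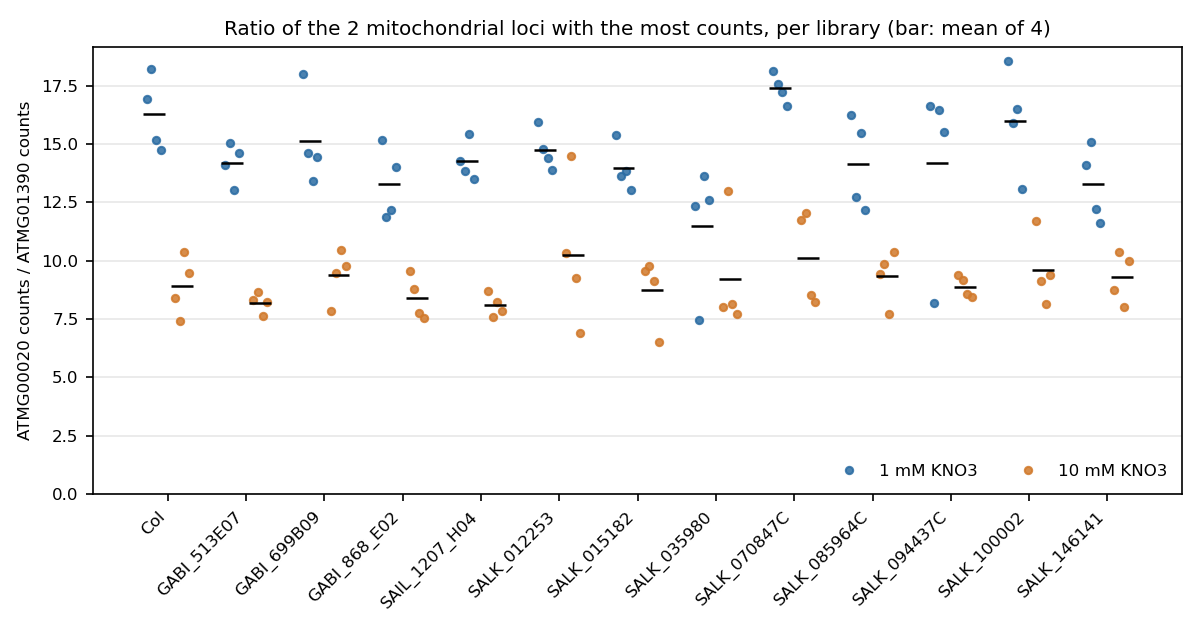
Counts of ATMG00020 divided by counts of ATMG01390 in each library, for the 13 lines at 1 mM (blue) and 10 mM KNO3 (orange); points are libraries and bars are means of 4. In 10 lines the 2 groups do not overlap, and the low blue points are SALK_035980 (7.45) and SALK_094437C (8.19).

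The mean ratio was 14.5 ± 2.22 (SD, n = 52) at 1 mM and 9.12 ± 1.52 (SD, n = 52) at 10 mM, a log2 difference of −0.67 within lines. It was lower at 10 mM in 13 of 13 lines, and the 2 groups did not overlap in 10 of them. In Col the median ratio was 16.0 at 1 mM and 8.92 at 10 mM. The groups overlapped in SALK_012253, where a library at 10 mM had 14.5, in SALK_035980, where a library at 1 mM had 7.45 and one at 10 mM 12.98, and in SALK_094437C, where a library at 1 mM had 8.19. The 3 libraries with high mitochondrial shares had little bearing on the ratio, which differed by −0.66 without them. Within the 3 strips that hold both concentrations the log2 difference was −0.49.

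Single loci were compared between concentrations with edgeR's quasi-likelihood test over the 13 lines, with Benjamini-Hochberg adjustment over all 18512 loci tested and a threshold of 0.05. In that comparison 26.7% of all loci tested rose and 25.2% fell at 10 mM, 4945 and 4659 loci. Scaled by library totals alone, without TMM factors, 4035 rose and 5577 fell. Of the 14 mitochondrial loci tested 1 rose and 4 fell, and 9 did not pass. The median log2 change of the 14 was −0.021, against 0.0096 over all loci.

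ATMG00020 ranged from 2379 to 10404 CPM at 1 mM, with a median of 3605, and from 1449 to 5040 CPM at 10 mM, with a median of 2655. The ranges overlapped, and the mean was lower at 10 mM in 13 of 13 lines. It fell by 0.48 on the log2 scale (SE 0.074, adjusted p = 2.7e-08, edgeR), by 0.38 without the 3 libraries that stood apart, and by 0.44 with strip as a term (adjusted p = 0.014).

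ATMG00640 showed the largest change among the loci tested of this genome, at a much lower level. It ranged from 0.627 to 18.1 CPM at 1 mM, with a median of 6.999, and from 1.21 to 10.9 CPM at 10 mM, with a median of 3.44. The log2 change was −1.03 (SE 0.14, adjusted p = 1.2e-09, edgeR), in the same direction in 13 of 13 lines, and it was −1.31 with strip as a term (adjusted p = 9.6e-05) and −1.25 within the 3 mixed strips (adjusted p = 0.0034).

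ATMG01380 had medians of 27.2 and 17.1 CPM at 1 and 10 mM and changed by −0.66 (SE 0.13, adjusted p = 1.5e-05, edgeR), lower in 12 of 13 lines. With strip as a term it changed by −0.41 and no longer passed (adjusted p = 0.24, edgeR). ATMG00690, with medians of 2.22 and 1.47 CPM, changed by −0.53 (adjusted p = 0.0054, edgeR). That call was lost without the 3 libraries that stood apart (−0.30, adjusted p = 0.086) and with strip as a term (−0.36, adjusted p = 0.55). The single locus that rose was ATMG00090, from a median of 26.4 to 32.5 CPM (log2 change 0.23, SE 0.089, adjusted p = 0.027, edgeR). Its call was lost with strip as a term (0.11, adjusted p = 0.75, edgeR).

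ATMG01390 went the other way from ATMG00020 without passing the test. Its medians were 252 and 297 CPM, and its log2 change of 0.16 (SE 0.077) had an adjusted p of 0.067 in edgeR. It was higher at 10 mM in 11 of 13 lines, and without the 3 libraries that stood apart its change was 0.25 and passed (adjusted p = 0.00090), while with strip as a term it was 0.05 and did not. ATMG00516, with medians of 5.74 and 4.95 CPM, had a change of −0.26 that did not pass (adjusted p = 0.064, edgeR), but it passed with strip as a term (−0.93, adjusted p = 0.0021) and within the mixed strips (−0.80, adjusted p = 0.010). Log2 changes of the other named loci were 0.01 for ATMG00660, −0.01 for ATMG01360, 0.17 for ATMG00080, −0.04 for ATMG00070 and 0.21 for ATMG01170, and none passed in edgeR.

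With strip as a term, 11.9% of all loci rose and 12.0% fell. Of the mitochondrial loci, none rose and 3 fell, namely ATMG00020, ATMG00640 and ATMG00516. All 5 loci called without strip kept their sign. Within the 3 mixed strips 12.3% of all loci fell, and 2 mitochondrial loci did, ATMG00640 and ATMG00516.

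Of the 42 chloroplast loci tested, 17 rose at 10 mM over the 13 lines, none fell in edgeR or DESeq2 and 25 did not pass, against the 26.7% of all loci that rose. In all, 37 of the 42 had a positive change, with a median of 0.24. Changes were small, from −0.21 to 0.83 on the log2 scale. The loci that hold most of the counts were not among the 17. ATCG00470 had medians of 428 and 469 CPM and a change of 0.14 (SE 0.065, adjusted p = 0.072, edgeR). Without the 3 libraries that stood apart its change was 0.22 and passed (adjusted p = 0.00047, edgeR), and with strip as a term it was 0.15 and did not (adjusted p = 0.40).

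Changes of the next loci by level did not pass either. They were 0.11 for ATCG01130, with medians of 123 and 126 CPM, and 0.09 for ATCG00500, with medians of 69.9 and 71.4 CPM. ATCG01020 had 0.24, ATCG00790 0.08, ATCG00800 −0.03 and ATCG00650 0.09.

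The well-counted loci with the largest rises were counted far less often. ATCG00300 ranged from 1.13 to 9.64 CPM at 1 mM, with a median of 4.46, and from 2.39 to 16.0 CPM at 10 mM, with a median of 8.21. It rose in 13 of 13 lines, by 0.77 (SE 0.10, adjusted p = 6.7e-10, edgeR), and its change with strip as a term was 0.61 (adjusted p = 0.056).

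ATCG00440 had medians of 29.3 and 40.5 CPM, and ATCG00030 of 20.3 and 27.6 CPM. Both were higher at 10 mM in 13 of 13 lines and rose by 0.44, with adjusted p of 9.8e-09 and 6.0e-08 in edgeR. With strip as a term the change was −0.01 for ATCG00440 (adjusted p = 0.97) and 0.16 for ATCG00030 (adjusted p = 0.54). The rise of ATCG00440 over 13 lines was thus not seen once strip was in the fit.

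ATCG00330 ranged from 3.34 to 148 CPM at 1 mM, with a median of 15.7, and from 8.26 to 72.8 CPM at 10 mM, with a median of 22.4. It rose by 0.59 (SE 0.16, adjusted p = 0.00075, edgeR), and its change with strip was 0.11 (adjusted p = 0.83). Rises of 0.40 for ATCG00090, 0.39 for ATCG00540, 0.37 for ATCG00220 and 0.24 for ATCG00740 passed too, with adjusted p of 0.0013, 4.2e-05, 0.0046 and 0.00047 in edgeR. All 4 missed the threshold with strip as a term, with changes of 0.11, 0.53, 0.49 and 0.26 and adjusted p of 0.79, 0.058, 0.14 and 0.20 in edgeR. ATCG00670, the Clp protease subunit, rose from a median of 5.30 to 7.25 CPM (0.33, adjusted p = 0.0067, edgeR), and its change with strip was 0.32 (adjusted p = 0.41). ATCG00660, for ribosomal protein L20, had medians of 8.79 and 9.74 CPM and a change of 0.11 that did not pass (adjusted p = 0.36). Below the 5 CPM mean, ATCG00020 had the highest change of all 42, at 0.83, with medians of 0.886 and 1.97 CPM (adjusted p = 7.5e-06, edgeR), and 0.94 with strip as a term, which did not pass (adjusted p = 0.12).

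**Figure D3:**
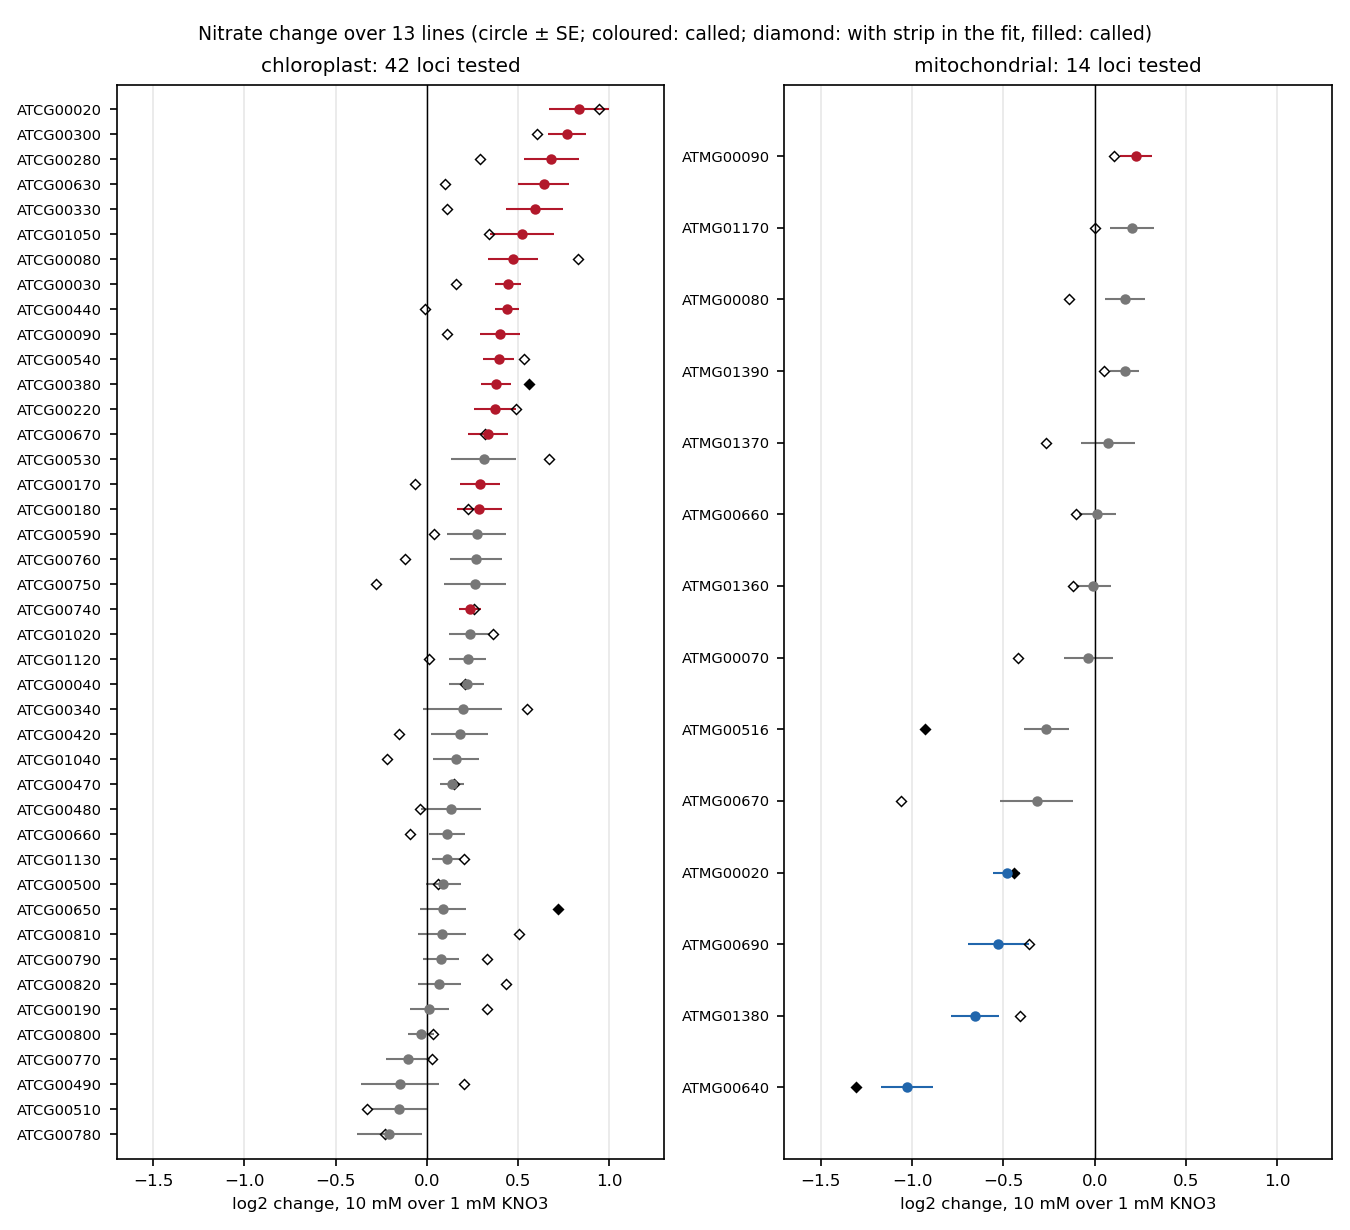
Log2 change at 10 mM over 1 mM KNO3 of the 42 chloroplast (left) and 14 mitochondrial loci tested (right), over 13 lines. Circles with bars are changes ± SE, red for rises and blue for falls that passed the test and grey otherwise; diamonds are changes with strip in the fit, filled where they passed. Circles of 37 chloroplast loci lie to the right of 0, and the lowest circle is ATMG00640 at −1.03.

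With strip as a term, 2 chloroplast loci rose and none fell, while 11.9% of all loci rose. They were ATCG00380, with a change of 0.56 (adjusted p = 0.018, edgeR), and ATCG00650, with a change of 0.72 (adjusted p = 0.033, edgeR). Of the 17 loci called without strip, 15 kept their sign, and the median of the 42 changes was 0.20 against 0.030 over all loci. Within the 3 mixed strips 10.5% of all loci rose, and ATCG00380 and ATCG00650 did.

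In Col alone, 11.8% of all loci tested were called for nitrate, and 5.09% of all loci tested were rises. The chloroplast loci called were ATCG00030, ATCG00440 and ATCG00300, all rises. No mitochondrial locus was called by edgeR without strip or by DESeq2, with 1 at an unadjusted p under 0.05 in edgeR. With strip as a term edgeR called ATMG00020, ATMG00516 and ATMG00640 as falls in Col. ATCG00030 had 8.94, 13.7, 10.5 and 11.7 CPM at 1 mM and 31.3, 30.3, 14.3 and 19.5 CPM at 10 mM. The groups did not overlap, and the change was 1.09 (SE 0.26, adjusted p = 0.0016, edgeR).

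ATCG00440 in Col had 18.9, 18.8, 24.1 and 15.4 CPM against 35.3, 45.6, 22.5 and 35.1 CPM, a change of 0.84 (adjusted p = 0.0083, edgeR), with one library of 10 mM inside the range of 1 mM. ATCG00300 had 3.57, 2.98, 4.46 and 2.74 CPM against 7.22, 6.52, 7.29 and 9.04 CPM, a change of 1.12 (adjusted p = 0.041, edgeR) with no overlap. The call of ATCG00300 held in 5 of 13 settings tried, that of ATCG00440 in 9 and that of ATCG00030 in 12. Of the 3, ATCG00030 alone passed with strip as a term. A further locus, ATCG00510, was not called here but was called as a fall in Col in 8 of the settings, DESeq2 and the fit with strip among them. Leaving out replicate 1 of every group left no chloroplast locus called in Col, and leaving out replicate 2 left 5.

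**Figure D4:**
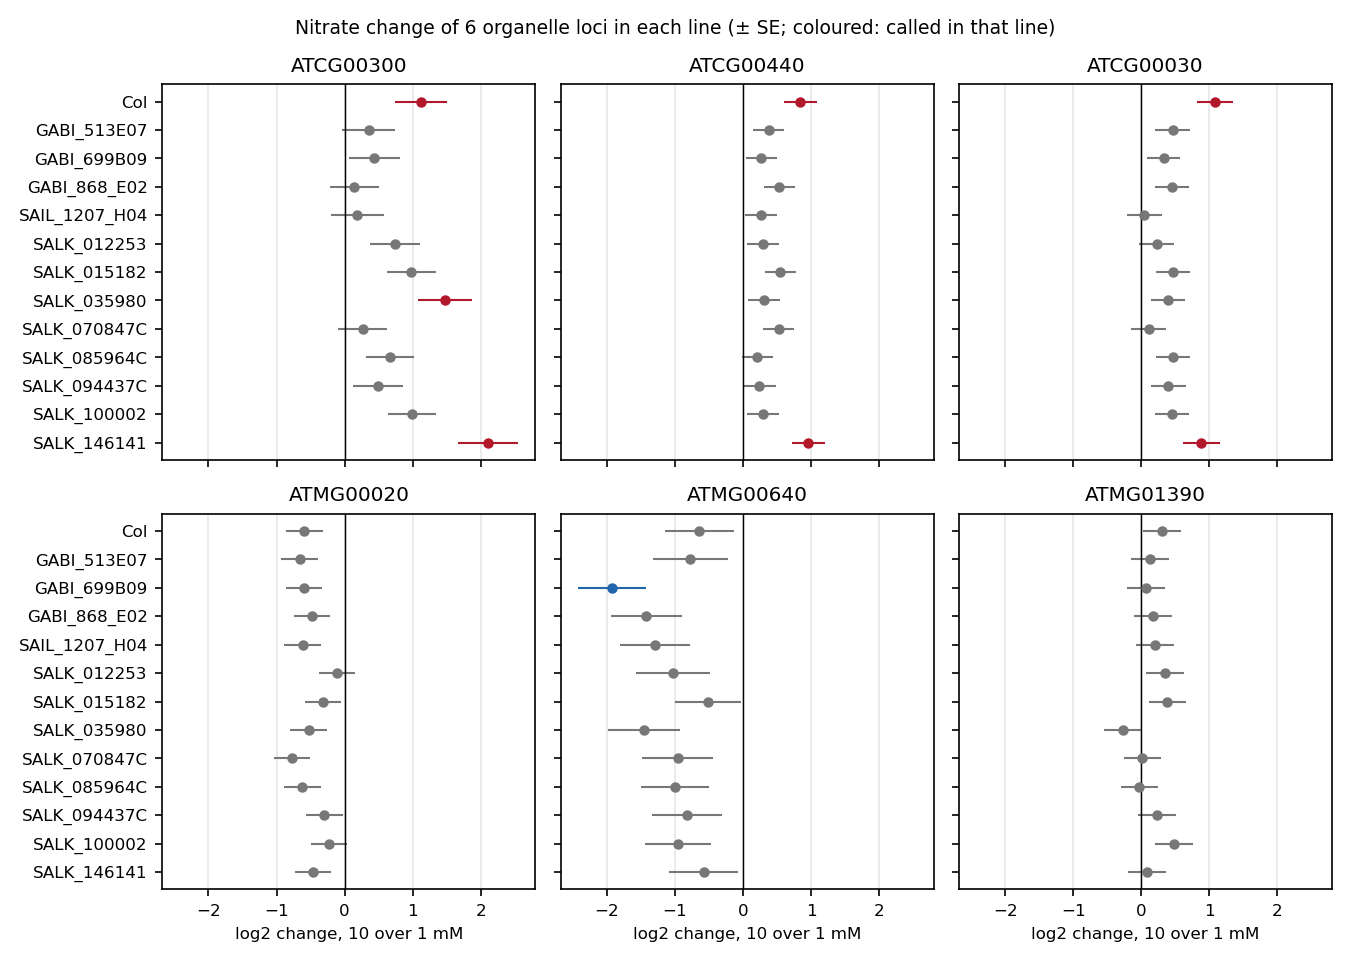
Log2 change at 10 mM over 1 mM KNO3 in each of the 13 lines for 3 chloroplast loci (top) and 3 mitochondrial loci (bottom), ± SE; red and blue points passed the test within that line. ATCG00300, ATCG00440 and ATCG00030 lie above 0 and ATMG00020 and ATMG00640 below 0 in every line plotted.

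In SALK_146141, where 5.53% of all loci rose, 5 chloroplast loci did, namely ATCG00300, ATCG00440, ATCG00540, ATCG00030 and ATCG00500. ATCG00300 had 2.75, 1.41, 5.28 and 1.13 CPM at 1 mM and 5.65, 10.2, 8.72 and 10.402 CPM at 10 mM. The groups did not overlap, and the change of 2.11 (adjusted p = 0.00022, edgeR) was called in 13 of 13 settings. Without the 3 libraries that stood apart, one of which belongs to this line, 2 of the 5 were called, ATCG00300 and ATCG00540. The changes of ATCG00440, ATCG00030 and ATCG00500 were then 0.75, 0.86 and 1.03, with adjusted p of 0.062, 0.052 and 0.074 in edgeR. ATCG00440 and ATCG00030 also missed the threshold with strip as a term (adjusted p = 0.16 and 0.25, edgeR). ATMG00690 fell by 2.02 on the log2 scale in this line, where 6.19% of all loci fell, and its highest value was in replicate 2 at 1 mM, one of the 3 libraries that stood apart. That library had 13.2 CPM where the others had 1.83, 2.64 and 3.95, against 2.21, 0.394, 1.31 and 1.73 CPM at 10 mM. Without the 3 libraries the change was −0.94 and was not called (adjusted p = 0.38, edgeR), and without replicate 2 of every group it was −0.69 (adjusted p = 0.57, edgeR). It missed the threshold with strip as a term too (adjusted p = 0.054, edgeR).

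In SALK_035980, where 3.68% of all loci rose and 5.33% fell, ATCG00300 and ATCG00540 rose and ATMG01170 fell. The call of ATMG01170 held in 4 of 13 settings (adjusted p up to 0.22, edgeR or DESeq2), and DESeq2 and the fit with strip called ATMG00640 as a fall in its place. ATCG00540 had 4.89, 5.53, 4.44 and 3.29 CPM against 8.72, 10.5, 11.02 and 7.31 CPM, with no overlap. In GABI_699B09, where 5.5% of all loci fell, ATMG00640 fell by 1.93 on the log2 scale. It had 3.11, 10.5, 14.9 and 14.8 CPM at 1 mM and 2.98, 3.12, 1.88 and 3.29 CPM at 10 mM, so that one library of 1 mM lay among those of 10 mM.

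The other calls within a line were single loci. ATCG00750, for ribosomal protein S11, rose in SALK_100002, where 4.15% of all loci rose, from 0, 1.89, 0.610 and 0.615 CPM to 3.66, 3.74, 3.25 and 1.11 CPM. ATCG00780 fell in GABI_513E07, where 5.22% of all loci fell, from 2.58, 1.26, 2.76 and 15.9 CPM to 1.67, 2.06, 1.05 and 1.53 CPM, and its highest value came from replicate 4. ATCG00770 fell in GABI_868_E02, where 5.29% of all loci fell, from 7.28, 4.25, 4.31 and 7.90 CPM to 4.03, 1.26, 1.81 and 2.32 CPM. None of these 3 calls passed with strip as a term, with adjusted p of 0.39, 0.12 and 0.41 in edgeR. The remaining 6 lines had no organelle locus called by edgeR without strip. They had 1 to 6 chloroplast and 0 to 2 mitochondrial loci at an unadjusted p under 0.05. DESeq2 called ATMG00020 as a fall in SALK_070847C, and edgeR with strip as a term called ATMG00640 as a fall in SALK_012253.

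Lines were compared with Col over both concentrations, and all 12 comparisons share the same 8 Col libraries. Of 504 tests of chloroplast loci 7 were called, 1.39%, all higher in the line, against 0.754% of the 222144 tests of all loci. Of 168 tests of mitochondrial loci none was called by edgeR without strip or by DESeq2, with 6 at an unadjusted p under 0.05 in edgeR. With strip as a term edgeR called ATMG01360 as higher in GABI_699B09. The chloroplast calls fell in GABI_699B09 and GABI_513E07, and they came to 3 without the libraries that stood apart, one of which is a Col library. At an unadjusted p under 0.05 there were 133 of the 504 chloroplast tests in edgeR, against 22927 of the 222144 tests of all loci. The median log2 difference of chloroplast loci from Col was positive in every line. It ran from 0.139 in GABI_868_E02 to 0.591 in SALK_070847C, with 0.277 in GABI_699B09 and 0.452 in GABI_513E07. Higher values than in Col were thus not particular to the lines with calls.

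In GABI_699B09, where 2.66% of all loci were higher than in Col, 5 chloroplast loci were. ATCG00030 had 27.0, 25.2, 24.7 and 16.9 CPM in the line at 1 mM, above each of the 4 Col values at 1 mM given before, and 27.3, 34.7, 27.6 and 28.1 CPM at 10 mM, which overlap those of Col there. The difference was 0.67 (SE 0.18, adjusted p = 0.0067, edgeR). At 1 mM the values of SALK_070847C, SALK_100002, SALK_015182, SALK_085964C, GABI_513E07 and GABI_868_E02 also lay above each Col value, without a call there. In SALK_070847C they were 26.6, 19.2, 24.8 and 31.2 CPM. In the other lines the range at 1 mM overlapped that of Col.

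ATCG00500 had 94.9, 91.5, 89.1 and 76.3 CPM in the line at 1 mM against 68.3, 15.6, 74.5 and 50.8 CPM in Col. At 10 mM it had 71.0, 80.8, 89.2 and 87.4 CPM against 53.3, 30.9, 19.7 and 66.1 CPM. The line and Col did not overlap at either concentration, and the difference was 0.85 (SE 0.25, adjusted p = 0.015, edgeR). ATCG01050, with 1.78 to 6.43 CPM in the line and 0 to 1.74 CPM in Col, differed by 1.68 (adjusted p = 0.012, edgeR). ATCG00220 and ATCG00820 differed by 0.95 and 0.92, with adjusted p of 0.025 and 0.042 in edgeR. Without the 3 libraries that stood apart, ATCG00030 and ATCG00220 were still called in this line, and ATCG00500, ATCG01050 and ATCG00820 were not.

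**Figure D5:**
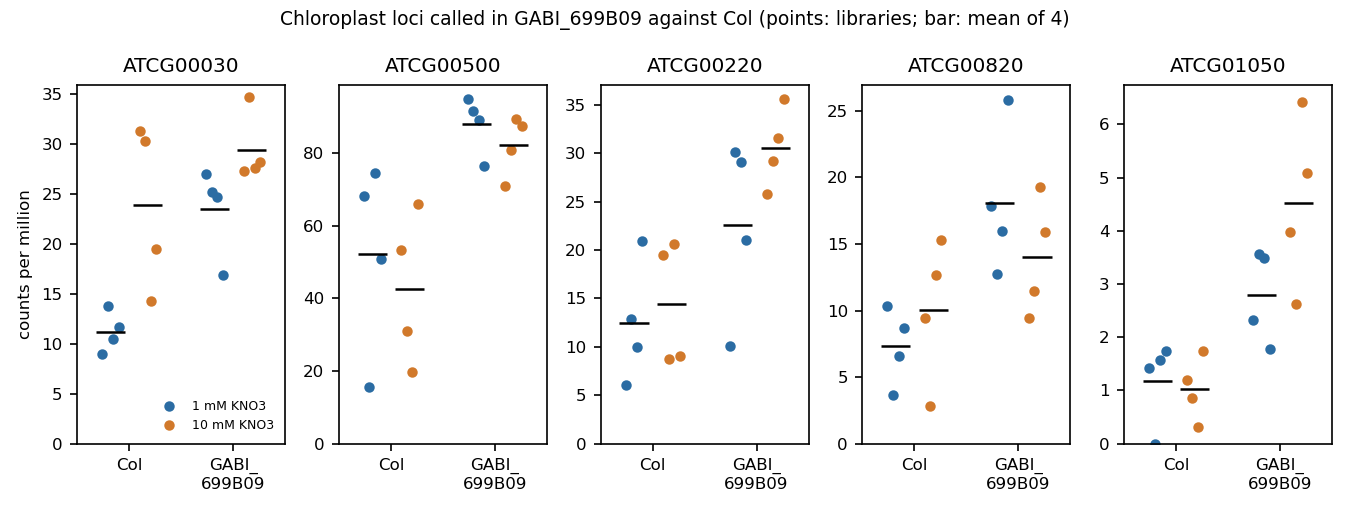
Level of the 5 chloroplast loci called in GABI_699B09 against Col, in CPM, at 1 mM (blue) and 10 mM KNO3 (orange); points are libraries and bars are means of 4. For ATCG00500 the points of the line lie above those of Col at each concentration, and for ATCG01050 every point of the line, 1.78 or more, lies above every point of Col, 1.74 or less.

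In GABI_513E07, where 0.189% of all loci were higher than in Col, ATCG00540 and ATCG00670 were. ATCG00540 had 9.90, 6.30, 7.37 and 10.71 CPM in the line at 1 mM against 2.14, 3.89, 3.15 and 4.73 CPM in Col, and 9.77, 7.66, 7.61 and 7.93 CPM at 10 mM against 5.42, 4.82, 7.29 and 4.17 CPM. There was no overlap at either concentration, and the difference was 0.94 (SE 0.22, adjusted p = 0.012, edgeR). ATCG00670, the Clp protease subunit, had 8.18, 3.15, 7.83 and 14.4 CPM in the line at 1 mM against 3.57, 2.06, 3.67 and 2.99 CPM in Col, which overlap. Its difference was 1.11 (adjusted p = 0.037, edgeR). Without the 3 libraries that stood apart ATCG00540 was still called and ATCG00670 was not. Each of these 7 calls was lost in 1 to 6 of the 13 settings tried.

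Neither share passed the test against Col in any line. The smallest p was 0.0714 for the chloroplast share of SALK_070847C, which was 1.24 times that of Col (exact permutation test, adjusted p = 0.875 over 24 tests). The response to nitrate was also compared between each line and Col by an interaction term. None of the 504 chloroplast tests and none of the 168 mitochondrial tests was called, against 1 of the 222144 tests of all loci (0.00045%). At an unadjusted p under 0.05 there were 36 and 6 in edgeR. DESeq2, which also tested loci under the filter, called none of 1104 and 636 tests, with 51 and 8 at an unadjusted p under 0.05. The calls that appear in one line and not in another are therefore not shown to differ between lines.

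The loci whose level followed ATCG00470 most closely were nuclear. Over the 52 libraries at 1 mM and 52 at 10 mM together, and among 14731 loci with a mean of 5 CPM or more, the Pearson correlation of log2(CPM + 1) was 0.82 for AT1G69510, 0.78 for SWC2 and 0.78 for AT3G52220. The closest chloroplast locus, ATCG00180, came 188th with 0.64. For ATMG00020 the closest were the potassium transporter gene KUP6 with 0.87, AT4G16660 with 0.81 and AT1G68470 with 0.80, and the closest mitochondrial locus, ATMG01380, came 133rd with 0.64. These libraries share nitrate concentrations, strips and lines, so the values are a description.

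Nuclear genes whose products serve the organelles were read from 4 lists in the same fit. Of the 26 nuclear photosynthesis genes listed, 22 were tested, and 22 rose at 10 mM, where 26.7% of all loci rose, with a median log2 change of 1.05. LHCB1.3 rose by 1.67, the Rubisco small subunit gene RBCS1A by 1.65 and the photosystem I antenna gene LHCA3 by 1.51. With strip as a term 12 of the 22 rose, where 11.9% of all loci rose. RBCS1A and LHCA3 were among the 12, and LHCB1.3 was not (1.34, adjusted p = 0.068, edgeR). The summed level of this list was 93.6 to 359 CPM at 1 mM, with a median of 191, and 181 to 646 CPM at 10 mM, with a median of 393. None of its 26 genes was at 0 in every library. The part that greener tissue had in the small rises of chloroplast loci was not tested.

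Of 18 nuclear genes of the respiratory chain, 14 fell, 1 rose and 3 did not pass, with a median of −0.18, where 25.2% of all loci fell and 26.7% rose. The alternative oxidase gene AOX1A fell by 1.305 on the log2 scale (SE 0.059, adjusted p = 4.6e-36, edgeR), CYTC-2, a cytochrome c gene, by 0.98 and SDH2-1, for a subunit of complex II, by 0.46, and 6 of the 18 fell with strip as a term, where 12.0% of all loci fell. Of 8 organelle transcription genes tested 5 rose, 1 fell and 2 did not pass, against the same shares of all loci. SIG6 and SIG5, sigma factors of the plastid polymerase, rose by 0.86 and 0.59, with adjusted p of 1.2e-13 and 4.4e-10 in edgeR, and 2 of the 8 rose with strip as a term, where 11.9% of all loci rose. Of 5 genes of organelle RNA processing and decay, RNR1, an exoribonuclease gene, rose by 0.27 (adjusted p = 0.010, edgeR), the gene of the mitochondrial polynucleotide phosphorylase fell by 0.25 (adjusted p = 0.012, edgeR) and 3 did not pass.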

How the data were processed

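Roots were profiled by 3′ tag RNA-seq (BRAD-seq DGE, per the labels' protocols). The deposited tables hold raw counts per locus, 1 table for each library and run, and run 1 was analysed here. The submitters' processing notes name FastQC, Bowtie, SAMtools, HTSeq and limma and the build TAIR10. How reads with several matches were treated, strand settings and read counts before alignment are not given in the sources used here. Totals ran from 805224 to 6009052 counts. In the shallowest library the 95% Wilson interval of the mitochondrial share of 0.379% was 0.366% to 0.393%, and 3 counts made 3.73 CPM. Such intervals cover counting error only.

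Shares are counts at organelle loci over all counts of a library. They were compared on the log2 scale by permutation within lines (100000 draws) or by exact permutation within a line (70 arrangements). Loci passing edgeR's filterByExpr (minimum count 10, 18512 loci) were fitted in 1 model of 26 groups by edgeR 4.0.16 in R 4.3.3 with TMM factors, glmQLFTest and Benjamini-Hochberg adjustment at 0.05. CPM of single organelle loci use the library total scaled by the TMM factor. Those of root markers, LHCB1.3, RBCS1A, the summed photosynthesis list and a floor of 3 counts use the total alone. The fit was checked on simulated counts.

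Members and lists were chosen with earlier results of these data known. Named loci are the 12 of each genome with the highest mean CPM, the up to 6 well-counted loci (mean of 5 CPM or more) with the largest called rise or fall, and the called well-counted locus with the smallest adjusted p in each line against Col. Others named were chosen after their values were seen. Alternatives were DESeq2 1.42.0, total counts without TMM, TMM from nuclear loci, no filter, leaving out each replicate, a replicate block, strip as a term, the 3 mixed strips, and leaving out libraries. Replicates are separate samples per the labels' protocols, and no pair of the same group agreed within counting noise (lowest chi-square per degree of freedom 2.40). Nuclear names come from the reference table, which matched 32835 nuclear ids. Groups by gene family, repeat copies and rRNA or tRNA loci were not analysed here, since the reference does not pair organelle ids with names.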

Additional observations from a re-analysis of the deposited data

Results flagged for a closer look

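In 7 of the 52 sets of 4 replicates, 26 for each genome, 1 library's share of counts lay apart from the other 3 by more than Dixon's critical value at 95%, which chance alone would give in about 1 of 20 such groups. Of these, 5 come from the 3 libraries at 1 mM with high mitochondrial shares.

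The mitochondrial share of Col at 1 mM was 0.978425% in replicate 2, against 0.300% to 0.402% in the others, and its chloroplast share was 0.128759%, against 0.0774% to 0.0846%. In SALK_070847C at 1 mM the mitochondrial share of replicate 4 was 1.17526%, against 0.295% to 0.407%, and its chloroplast share was 0.169487%, against 0.102% to 0.114%. In SALK_146141 at 1 mM the chloroplast share of replicate 2 was 0.150838%, against 0.0843% to 0.0908%.

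In these 3 libraries the leading mitochondrial locus, ATMG00020, was at 8256, 10404 and 6093 CPM, where the other replicates of each group lay between 2379 and 3648 CPM. The leading chloroplast locus, ATCG00470, was at 785, 962 and 825 CPM in the same libraries. Their totals were 3953904, 3390825 and 4876091 counts, where the median of all libraries was 3617297.

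The other 2 are the chloroplast share of SALK_100002 at 1 mM, which was 0.089956% in replicate 4 against 0.0988% to 0.100012% in the others, and the mitochondrial share of SALK_094437C at 10 mM, which was 0.537997% in replicate 1 against 0.306% to 0.325%.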

How the results depend on the processing

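The log2 difference of the chloroplast share, 0.15, was 0.0900 to 0.194 without 1 replicate and no longer passed without replicate 3 or within the mixed strips (0.220). That of the mitochondrial share, −0.44, was −0.592 to −0.323 without 1 replicate, missed the threshold within the mixed strips (−0.281) and turned to 0.0744 without ATMG00020. The ratio of ATMG00020 to ATMG01390 ranged from −0.74 to −0.48 over all settings.

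The 17 chloroplast rises became 2 with strip as a term, 2 within the mixed strips and 12 to 21 without 1 replicate, and the 0 falls became 0 to 1. The 3 chloroplast calls in Col became 0 to 5 without 1 replicate and 5 without the 3 libraries that stood apart. The 7 calls of lines against Col became 1 to 5 without 1 replicate, 11 with strip and 3 without those libraries. The 1 mitochondrial rise became 0 to 3 without 1 replicate, 0 without TMM factors, with strip or within the mixed strips, and 2 without the 3 libraries. The 4 falls became 3 to 6 without 1 replicate and 2 within the mixed strips. Mitochondrial calls in Col, 0, became 0 to 1 without 1 replicate, 3 with strip and 1 without the 3 libraries, and those against Col became 1 with strip and 1 without the 3 libraries. The causes were not tested.

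Signs of single loci turned, among them those of the called rises of ATCG00440, ATCG00330 and SIG2. With strip as a term the turned changes were −0.0126 for ATCG00440, 0.0315 for ATCG00800, −0.138 for ATMG00080, −0.101 for ATMG00660 and −0.0793 for SIG2 (AT1G08540). Within the mixed strips they were −0.00600 for ATCG00330, 0.118 for ATCG00800, −0.0420 for ATMG00660 and −0.121 for ATMG01170. Without 1 replicate changes ranged from −0.0303 to 0.246 for ATCG00500, −0.109 to 0.528 for ATCG00650, −0.0403 to 0.220 for ATCG00790, −0.110 to 0.0792 for ATCG00800, −0.276 to 0.214 for ATMG00070, −0.120 to 0.176 for ATMG00660, −0.148 to 0.155 for ATMG01360 and −0.00767 to 0.296 for ATMG01390. Without the 3 libraries they were 0.0769 for ATMG00070 and 0.0538 for ATMG01360. ATMG00660 was at −0.0327 without TMM factors and −0.00479 without the filter. Over 38 named loci and 14 settings, 451 of 532 values kept their direction and side of the threshold.

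Replicate numbers did not pair the samples: 52 same-numbered pairs had correlations of −0.384 to 0.271, and in no line were all above 0.1. With the replicate block there were 19 chloroplast rises, 2 mitochondrial rises and 4 falls, and 0.00147 for ATMG01360. Without TMM factors 4035 loci rose and 5577 fell, against 4945 and 4659, and the median of all loci was −0.034. Alternatives by gene family, repeat copy and rRNA or tRNA locus were not run. With 3 counts standing for 0.499 to 3.73 CPM in a library, values of a single library below such levels are uncertain. Over all libraries together some loci at such levels were called, ATCG00020 among them.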
